A study of Arabidopsis thaliana with 18 samples.

Results

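The comparison described here is between 2 sets of plants that had received the same hormone spray. SA arrays 103, 104 and 105 (the second SA triplet) were set against SA arrays 100, 101 and 102 (the first SA triplet), 6 of the 18 arrays in all, chosen by the array numbers in their titles. Plants of both triplets were Arabidopsis thaliana of the accession Tsu-1 treated with 0.30 mM salicylic acid (SA) in 0.02% silwet, a surfactant that lets a spray wet the leaf. Silwet arrays 94, 95 and 96 and silwet arrays 91, 92 and 93 came from Tsu-1 plants given 0.02% silwet without SA. They served as the corresponding pair of triplets without the hormone, matched by the order of array numbers. SA arrays 106, 107 and 108 form the third SA triplet. The labels give no tissue, age or time after treatment, and they do not say what separates the triplets. The published study of this project sampled plants at successive times after spraying, and the triplets are described here as array numbers only. Replicate numbers 1, 2 and 3 stand once in each triplet, and the labels do not tie them to different plants, so p-values here reflect array-to-array spread that could be technical.

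Salicylic acid is the plant hormone best known for defence against pathogens that feed on living tissue. It is sensed by NPR proteins, which work with TGA and WRKY transcription factors to switch on genes for antimicrobial proteins, immune receptors and the secretory machinery that exports them. Plants limit the signal by attaching sugar or methyl groups to SA, and active defence is commonly accompanied by lower expression of growth and photosynthesis genes.

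Each array gave 1 hybridisation signal per probe set, a group of short probes for 1 transcript, and values below are log2 of that signal, so a difference of 1 is a 2-fold change. Arrays within the second SA triplet correlated at 0.949 to 0.96 over the tested probe sets, against 0.856 to 0.965 within the first, and arrays of different triplets at 0.813 to 0.909. SA array 100 stood apart. Its mean correlation with the other 17 arrays was 0.852, the lowest of the 18, its median signal of 26.0 was also the lowest, and its GAPDH control read 0.86 higher at the 3′ end than at the 5′ end, the highest of the 18, against -0.48 to 0.66 on the other arrays. Its actin control, at 3.19, was exceeded only by 3.42 on silwet array 91, with the other arrays at 1.5 to 2.38. List counts that changed without array 100 are given both ways. Among marker genes, RCA, the activase of the carbon-fixing enzyme of green tissue, read 11.58 to 11.85 in the second SA triplet and 10.08 to 11.75 in the first. It did not pass (difference 0.56, limma adjusted p = 0.101). RCA is 1 of the 17 photosynthesis genes described below, of which 6 rose and 1, the antenna gene LHCB4.3, fell (difference -1.47). The 3 measured root markers (JAL22, JAL33 and PYK10) averaged 6.30 to 6.69 per array against 5.84 to 6.90, and 0 of 3 passed the test. In silwet the same markers averaged 5.72 to 6.43 on arrays 94 to 96 and 6.69 to 7.47 on arrays 91 to 93, again with 0 of 3 passing. The single named flower or pollen gene and the single named seed gene were too dim to be tested. RNA came from whole samples, in which fewer cells of a type and less RNA per cell cannot be told apart.

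The transcriptome differed widely between the triplets. Of 15922 probe sets tested with limma, 2592 (16.3%) were higher and 1788 (11.2%) lower in the second SA triplet than in the first at an adjusted p under 0.05, together 27.5%. These included 1363 higher and 960 lower probe sets with 1 named gene. The falls were larger. Among calls, the median size was 1.14 for falls and 0.94 for rises, with 256 falls but 127 rises of at least 2 log2 units, and 48 falls but 20 rises of at least 3. The arrays of both triplets did not overlap for 2802 probe sets that were higher (17.6%) and 2017 that were lower (12.7%), together 30.3%. The sign was the same in all 3 replicate pairs for 2535 of the 2592 rises and 1749 of the 1788 falls, against 53.2% of all tested probe sets. Without array 100, 3004 rose and 1956 fell. Without array 104, 1665 rose and 1324 fell. The shares of 16.3% and 11.2% are those against which the counts of the gene lists below are set, and the median difference of all tested probe sets was 0.18 (0.14 without array 100).

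Of the measured genes tied to SA in defence, 6 were lower in the second triplet. Their list is mixed and also holds genes that make an immune signal or modify SA. The list names 81 genes, of which 13 had a probe set naming that gene alone and 11 were bright enough to be tested. Of these 11, 6 fell, 0 rose and 5 did not pass, beside 11.2% of all tested probe sets that fell, and the list's median difference was -1.29 beside 0.18 for all tested probe sets. The list's members averaged 6.38, 5.67 and 6.48 on SA arrays 103, 104 and 105, against 7.42, 7.59 and 7.53 on SA arrays 100, 101 and 102. GRX480, a glutaredoxin that binds TGA factors and links SA to jasmonate signalling, read 7.01, 6.36 and 7.42 in the second triplet, against 9.95, 9.32 and 9.39 in the first. The triplets did not overlap, and the fall was 2.62 on the log2 scale (limma difference -2.62, SE 0.27, adjusted p = 9.12e-06). WRKY53, a transcription factor of defence and leaf senescence, read 7.77, 6.30 and 6.71 against 9.46, 9.15 and 9.25, a difference of -2.36 (SE 0.25, limma adjusted p = 1.05e-05).

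AT5G52810 encodes SARD4, the reductase that completes the synthesis of pipecolic acid, a signal of systemic immunity. Its values were 8.0, 7.30 and 8.30 in the second triplet, against 9.99, 9.61 and 9.92 in the first (difference -1.97, SE 0.21, limma adjusted p = 1.16e-05). Every array of the second triplet lay below every array of the first. SAG101, a partner of EDS1 in immune receptor signalling, read 5.80, 5.77 and 5.53 against 6.45, 6.63 and 6.42, a smaller fall of 0.80 (SE 0.20, limma adjusted p = 0.00766). BSMT1, which methylates SA, read 5.23, 4.25 and 5.37 against 6.35, 3.41 and 3.65 and did not pass (difference 0.48). Array 100 was its highest value, and without that array the difference was 1.36 (limma adjusted p = 0.018), so that 1 member rose and 6 fell.

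Some enzymes that attach sugars rose and some fell, at shares close to those of all tested probe sets. Of 30 measured glycosyltransferases, 3 rose and 4 fell, beside 16.3% and 11.2% of all tested probe sets, with a median of 0.00. Without array 100, 3 rose and 8 fell. UGT76B1, which glucosylates SA and isoleucic acid, was the glycosyltransferase with the largest fall. It read 5.33, 6.05 and 7.99 in the second SA triplet, against 10.45, 10.88 and 10.82 in the first (difference -4.26, SE 0.55, limma adjusted p = 6.69e-05). The triplets did not overlap, and the second spread over more than 2 log2 units. UGT73B5, which acts in redox balance during the hypersensitive response, also fell, with 4.20, 4.58 and 4.69 against 5.38, 7.63 and 6.79 (difference -2.11, SE 0.42, limma adjusted p = 0.00192).

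UGT73B5 also belongs to the list of detoxification genes, of which 4 of 10 fell and 0 rose (median -0.81), with 11.2% of all tested probe sets falling. Without array 100, 5 fell. Only 12 of the 56 genes on that list had a probe set naming them alone. GSTU25, a glutathione transferase, read 5.24, 4.74 and 6.09 against 6.69, 7.40 and 7.25 (difference -1.76, SE 0.32, limma adjusted p = 0.000872). GSTU22 of the same family read 4.13, 4.11 and 4.51 against 5.46, 6.22 and 5.57 (difference -1.5, SE 0.32, limma adjusted p = 0.00312). The triplets of both genes were separate. The other member that fell was NQR, a quinone reductase, at -0.76. Of all 12 glutathione transferases measured, 1 rose and 2 fell, and without array 100, 2 rose and 2 fell.

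Immune receptor genes and related kinases that passed the test were lower in the second triplet. Of 15 TIR-domain genes, a class of intracellular receptors and their relatives that sense pathogen molecules, 7 fell, 0 rose and 8 did not pass, beside 11.2% of all tested probe sets that fell, with a median of -0.72. AT5G45000 read 4.89, 4.81 and 4.63 in the second SA triplet, against 7.03, 6.81 and 6.61 in the first (difference -2.04, SE 0.21, limma adjusted p = 8.56e-06). These 3 pairs of arrays differed by nearly the same amount. AT1G72900 read 6.04, 6.6 and 7.23 against 9.18, 8.96 and 9.23 (difference -2.5, SE 0.28, limma adjusted p = 1.88e-05), and AT1G57630 had the largest fall of the list at -3.56. Of 6 receptor-like kinases, 3 fell, 0 rose and 3 did not pass (median -1.12). BIK1, the cytoplasmic kinase that relays signals from pattern receptors, read 6.23, 6.43 and 7.07 against 7.93, 8.33 and 9.02 (difference -1.85, SE 0.19, limma adjusted p = 1.05e-05). EFR, the receptor of bacterial elongation factor Tu, did not pass (difference -0.38, limma adjusted p = 0.313).

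Of 15 measured genes of calcium signalling and of the rapid response to wounding or touch, 8 fell, 0 rose and 7 did not pass, beside 11.2% of all tested probe sets that fell. The median was -0.70, and without array 100, 7 fell. PUB24, a ubiquitin ligase that damps pattern-triggered immunity, read 6.59, 6.10 and 6.55 in the second SA triplet, against 8.71, 8.53 and 8.55 in the first (difference -2.18, SE 0.18, limma adjusted p = 2.47e-06). Its relative PUB23 fell by 2.66. CML38, a calmodulin-like calcium sensor, read 4.12, 4.57 and 5.45 against 6.89, 6.90 and 7.70 (difference -2.45, SE 0.25, limma adjusted p = 9.12e-06). The triplets of both genes were apart by more than 1 log2 unit. Further falls were those of STZ, a zinc finger repressor of stress responses, at -2.29, CML42 at -1.79 and CML37 at -1.62.

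Among 13 measured genes that fold and export secreted proteins, 7 fell, 0 rose and 6 did not pass, beside 11.2% of all tested probe sets that fell (median -0.52). BZIP60, the transcription factor activated by unfolded proteins, had the largest difference, with 8.91, 8.10 and 8.90 in the second SA triplet against 10.47, 10.33 and 10.60 in the first (difference -1.83, SE 0.18, limma adjusted p = 7.08e-06). DER1, which takes part in removing misfolded proteins, read 7.64, 7.12 and 7.5 against 8.41, 8.06 and 8.38 (difference -0.87, SE 0.17, limma adjusted p = 0.00177). AT1G29310, a subunit of the SEC61 translocon through which new proteins enter, read 7.45, 7.27 and 7.60 against 8.11, 8.21 and 8.44 (difference -0.81, SE 0.18, limma adjusted p = 0.00377). In each of these 3 genes the highest array of the second triplet lay below the lowest of the first.

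The largest falls among all named genes reached 7.08 log2 units. That was AT1G74870, a RING or U-box protein of the kind found in ubiquitin ligases, which read 1.46, 1.09 and 4.27 in the second SA triplet against 8.83, 9.93 and 9.29 in the first (SE 0.67, limma adjusted p = 5.39e-06). The low values were close to the bottom of the array's range, where the size of a log2 difference is uncertain. With a floor at the 20th percentile of all arrays pooled, the difference was -6.36. AT2G22880, a VQ-motif protein of the family that binds WRKY factors, read 1.02, -0.39 and 4.82 against 7.01, 6.27 and 8.05 (difference -5.30, SE 0.65, limma adjusted p = 4.24e-05), and with the floor -3.94. AT2G23270 read 3.06, 2.73 and 3.36 against 7.72, 7.93 and 7.51 (difference -4.67, SE 0.45, limma adjusted p = 6.22e-06). All 3 genes separated the triplets completely.

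The other named genes among the 12 largest falls have varied products. AT5G51440, a small heat shock protein of mitochondria, read 5.6, 5.35 and 6.80 in the second SA triplet, against 9.79, 10.40 and 9.96 in the first (difference -4.13, SE 0.31, limma adjusted p = 1.21e-06). CYP84A4, a cytochrome P450 of arabidopyrone synthesis, read 3.22, 2.75 and 3.14 against 6.74, 6.93 and 7.03 (difference -3.87, SE 0.29, limma adjusted p = 1.21e-06). Neither gene had overlapping arrays. AT3G23550, a transporter of the MATE efflux family, fell by 3.63, and AT2G44370, a C1-domain protein, by 3.50. The methyltransferases AT4G22530 and AT3G54150 fell by 3.49 and 3.20, and AT4G28460 by 3.37.

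**Figure D1:**
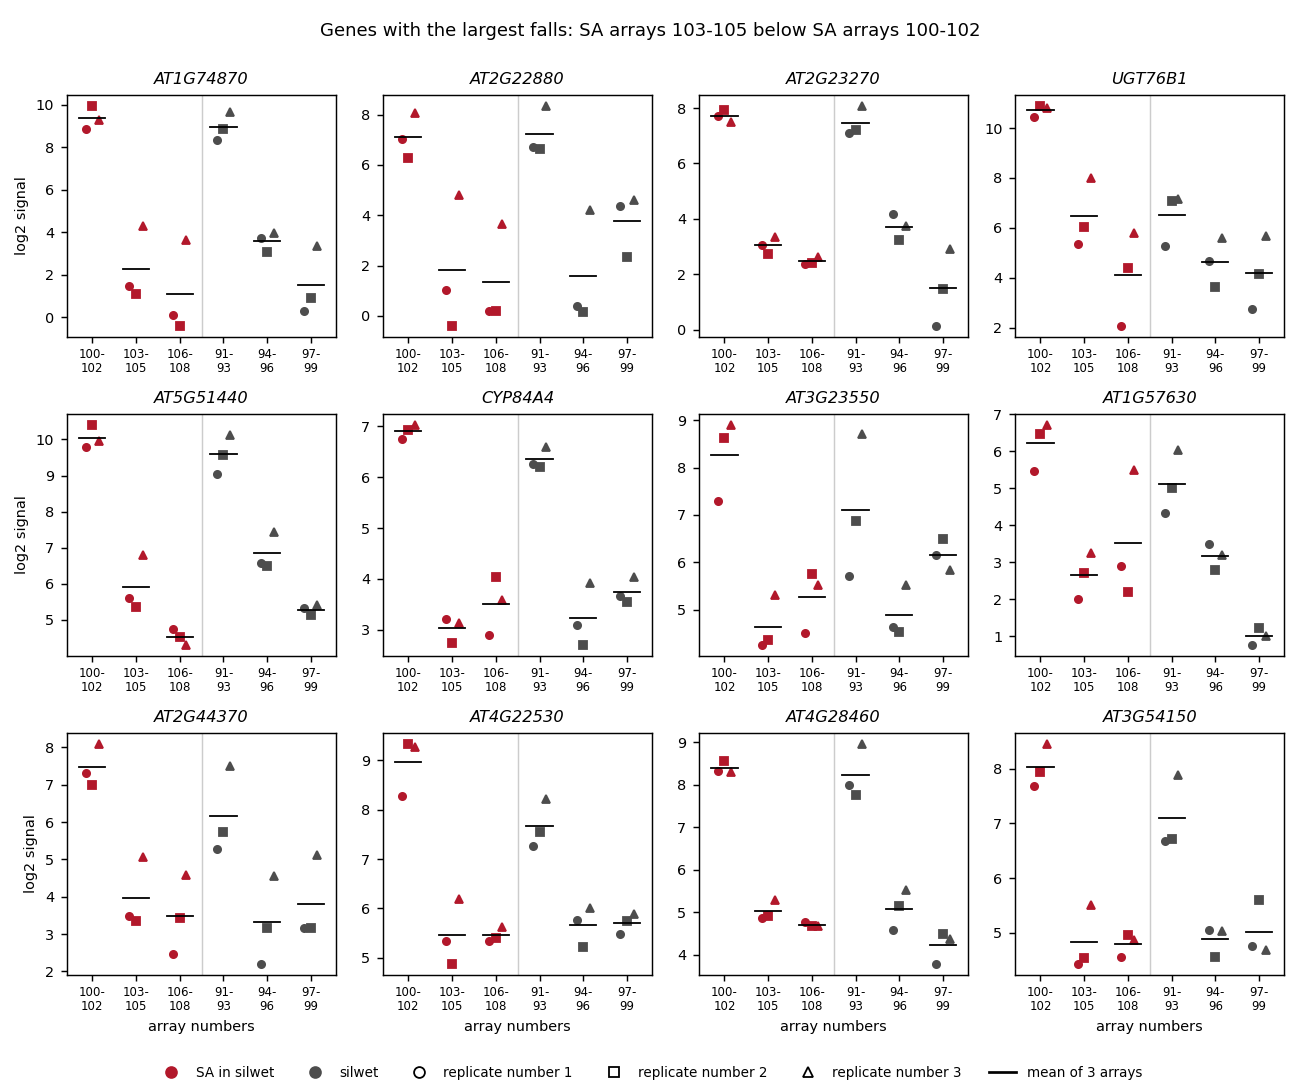
Log2 signal of the 12 named genes with the largest falls, 1 panel per gene and 1 point per array, in SA (red) and silwet (grey), with marker shapes for replicate numbers and bars for means of 3 arrays. In every panel the points of SA arrays 103-105 lie below those of SA arrays 100-102, and AT1G74870 shows the largest gap.

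The 12 named genes with the largest rises included several for proteins that act on the cell wall, grouped here after their values were seen. EXPA8 belongs to the list of cell wall expansion genes, and the other 4 do not. The pectate lyase-like gene AT1G67750 read 8.04, 8.08 and 7.46 in the second SA triplet, against 4.20, 5.18 and 4.60 in the first (difference 3.20, SE 0.28, limma adjusted p = 2.77e-06). AT4G24780, of the same family, read 9.27, 9.66 and 9.05 against 6.54, 6.74 and 6.28 (difference 2.80, SE 0.20, limma adjusted p = 1.05e-06). AT1G10640, a polygalacturonase-like gene for the hydrolysis of pectin, read 6.99, 7.08 and 5.82 against 3.61, 3.87 and 3.40 (difference 3.0, SE 0.31, limma adjusted p = 9.63e-06). In all 3 genes the lowest array of the second triplet was above the highest of the first by more than 1 log2 unit. GH9C2, an endoglucanase of the family that acts on cellulose, read 9.65, 9.82 and 9.49 against 6.6, 7.07 and 7.33 (difference 2.65, SE 0.31, limma adjusted p = 2.5e-05).

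EXPA8, an expansin that loosens walls as cells enlarge, read 8.85, 9.12 and 8.73 against 6.70, 6.14 and 6.42 (difference 2.48, SE 0.28, limma adjusted p = 1.81e-05). Over the whole list of cell wall expansion genes, 12 of 35 rose, 3 fell and 20 did not pass, beside 16.3% of all tested probe sets that rose, and the median was 0.44. The expansins EXPB1, EXPB3 and EXPA15 rose by 1.77, 1.47 and 1.33. The falls were XTH18 and XTH29, which cut and rejoin xyloglucan, at -2.55 and -1.25, and PME61, a pectin methylesterase, at -1.18. Without array 100, 15 rose and 3 fell.

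The largest rise among all called probe sets was 5.53. Among those with 1 named gene, the same sign in all 3 pairs and a mean of at least 6 in the brighter triplet, it was that of SAG29, a sugar transporter of the SWEET family also called SWEET15. It read 7.15, 5.82 and 6.62 in the second SA triplet, against 3.09, 1.48 and 2.47 in the first (difference 4.19, SE 1.01, limma adjusted p = 0.00635). The triplets did not overlap, but the SE was among the largest of the named genes. Its values in the first triplet were low, and with a floor at the 20th percentile the difference was 3.90. ATSPS4F, a sucrose phosphate synthase, read 6.73, 7.61 and 6.86 against 3.70, 5.38 and 4.16 (difference 2.65, SE 0.37, limma adjusted p = 0.000109). AT5G39520 read 8.14, 6.86 and 7.73 against 4.48, 3.83 and 3.72 (difference 3.56, SE 0.64, limma adjusted p = 0.000915).

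The remaining named genes among the 12 largest rises encode different kinds of protein. AT4G12490, a lipid transfer protein of the AZI group tied to systemic immunity, read 8.45, 8.51 and 10.04 in the second SA triplet, against 6.20, 6.05 and 6.63 in the first (difference 2.71, SE 0.37, limma adjusted p = 9.66e-05). AT4G16260, of the beta-1,3-glucanase family that includes pathogenesis-related proteins, read 7.53, 7.27 and 7.04 against 4.10, 4.87 and 4.78 (difference 2.70, SE 0.60, limma adjusted p = 0.0038). The triplets of both genes were separate. For AT1G09750, an apoplastic aspartyl protease, the values were 9.87, 10.85 and 10.27 against 5.49, 8.90 and 8.45, with array 100 far below the other arrays. Its difference was 2.72 (limma adjusted p = 0.00068) and 1.90 without array 100. AT2G47440, a tetratricopeptide repeat protein, read 6.96, 7.26 and 7.20 against 2.01, 5.63 and 5.38, and its difference of 2.80 became 1.66 without array 100 (limma adjusted p = 9.56e-05).

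**Figure D2:**
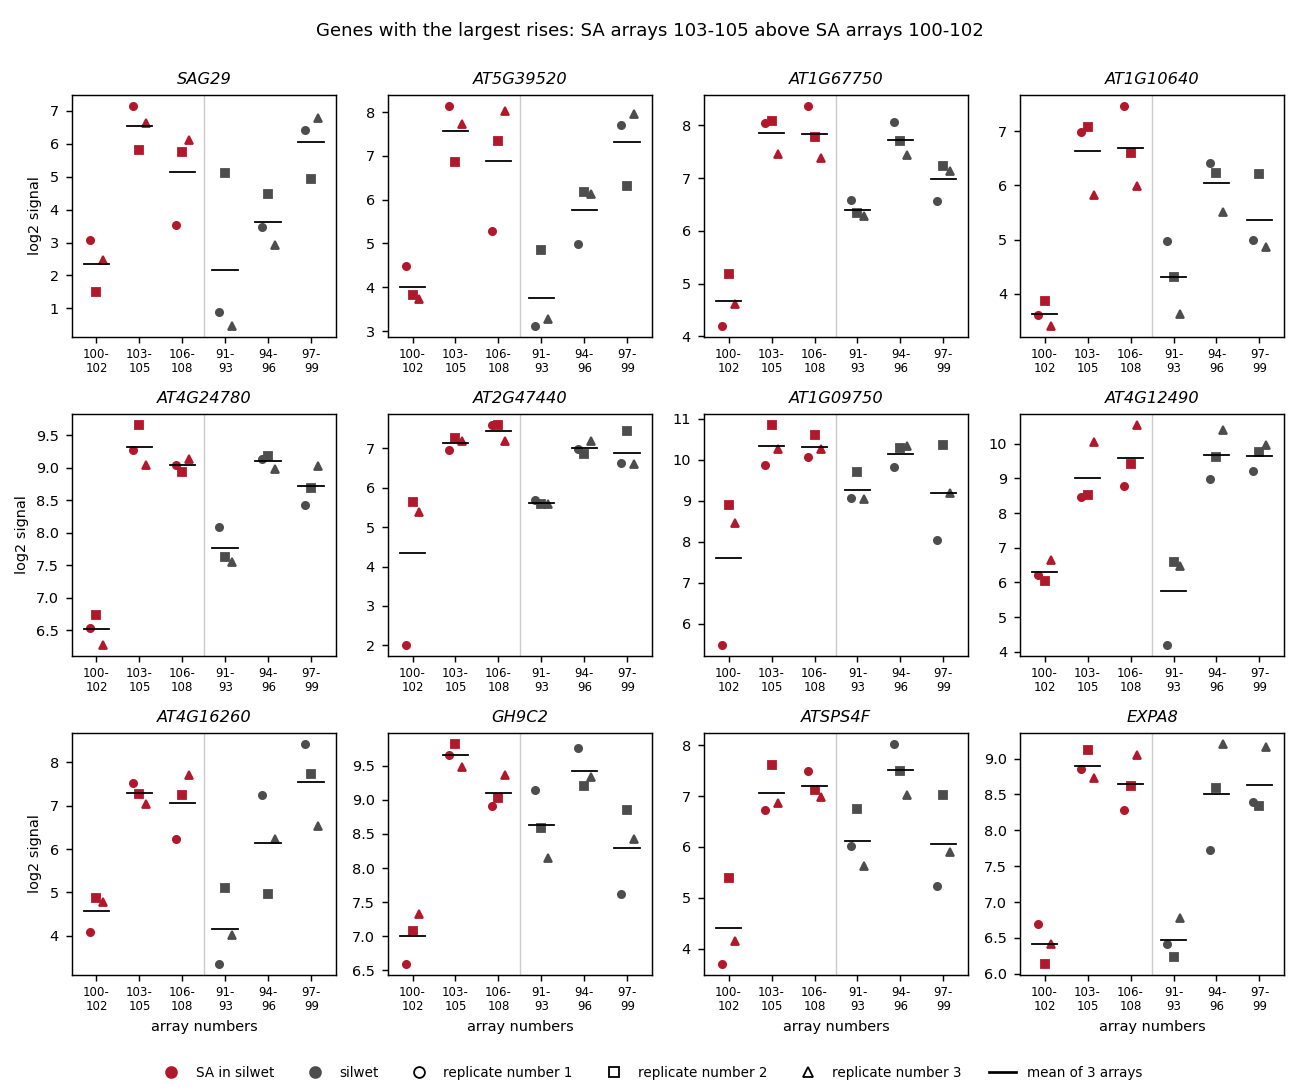
Log2 signal of the 12 named genes with the largest rises, drawn with 1 point per array, colours for SA (red) and silwet (grey), shapes for replicate numbers and bars for means of 3 arrays. SA arrays 103-105 lie above SA arrays 100-102 in every panel, and array 100 is the low red point of AT2G47440 and AT1G09750.

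Of 17 measured genes of cell division and the cytoskeleton, 6 rose, 1 fell and 10 did not pass (median 0.47). Among all tested probe sets rises also outnumbered falls, at 16.3% against 11.2%, and the list's difference from them was not tested. Without array 100, 8 rose and 1 fell. TUB1, a beta-tubulin, read 6.80, 6.74 and 6.30 in the second SA triplet, against 5.73, 5.53 and 5.38 in the first (difference 1.06, SE 0.18, limma adjusted p = 0.000479). TUB5 rose by 1.11, and HTB1, a histone H2B, by 0.88. TUA6, an alpha-tubulin, rose by 0.84, but by 0.55 without array 100 (limma adjusted p = 0.00745). TUB6 rose by 1.06, but by 0.69 without that array.

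Of 17 measured photosynthesis genes of the nucleus, 6 rose, 1 fell and 10 did not pass, beside 16.3% and 11.2% of all tested probe sets. The list's median was 0.29, and 0.16 without array 100, where the median of all tested probe sets was 0.14. PORB, which makes chlorophyllide in the light, read 11.15, 11.52 and 11.16 in the second SA triplet, against 9.92, 10.77 and 10.45 in the first (difference 0.90, SE 0.15, limma adjusted p = 0.000546). PRK, the phosphoribulokinase of the Calvin cycle, read 11.16, 11.38 and 10.69 against 10.42, 10.61 and 10.24 (difference 0.65, SE 0.16, limma adjusted p = 0.00626). LHCB4.3, a minor antenna protein of photosystem II, was the member that fell, with 6.45, 6.97 and 6.17 against 7.87, 8.31 and 7.81 (difference -1.47, SE 0.16, limma adjusted p = 1.82e-05). Its relatives LHCB4.1 and LHCB4.2 did not pass, at 0.29 and -0.20. Of 69 genes of the plastid genome 1 rose and 0 fell (median 0.10). That gene was rbcL, for the large subunit of Rubisco, at 1.2, and its call ended without array 100 (difference 0.88, limma adjusted p = 0.146), array 102 (1.3), array 103 (0.71) or array 104 (1.39).

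Genes of starvation, senescence and autophagy were split, with 4 of 27 higher, 6 lower and 17 not passing (median -0.05), beside 16.3% of all tested probe sets that rose and 11.2% that fell. Without array 100, 6 were higher and 6 lower. WRKY6, a senescence-associated transcription factor, read 5.93, 5.42 and 6.38 in the second SA triplet, against 7.20, 8.22 and 8.78 in the first (difference -2.15, SE 0.30, limma adjusted p = 0.00013). ATG8E, a ubiquitin-like protein of autophagosomes, read 6.86, 6.75 and 7.38 against 8.39, 8.25 and 8.71 (difference -1.46, SE 0.27, limma adjusted p = 0.0012). MCCB, a subunit of the carboxylase that breaks down leucine, rose by 1.5 (limma adjusted p = 0.00335), and by 1.01 without array 100. SWEET13, a sucrose transporter, rose by 1.51.

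In the lists for other hormones, the number of calls changed without array 100. Of 8 measured jasmonate and ethylene genes 1 fell and 0 rose, and without array 100, 2 fell and 1 rose, beside 27.5% of all tested probe sets called with all arrays. The fall was that of JMT, which methylates jasmonic acid, with 3.48, 3.53 and 4.08 in the second SA triplet against 6.30, 4.59 and 6.95 in the first (difference -2.25, SE 0.43, limma adjusted p = 0.00134). THI2.1, a thionin, was not called, at 1.80 (limma adjusted p = 0.117), but passed without array 100 at 2.53 (limma adjusted p = 0.0325). EIN3, the transcription factor of ethylene signalling, likewise differed by -0.31 (limma adjusted p = 0.217) and by -0.48 without array 100 (limma adjusted p = 0.0471). Of 7 auxin genes 1 fell and 0 rose, and without array 100, 2 fell. The second was WES1, of the GH3 family, at -0.88 with all arrays (limma adjusted p = 0.0787) and -1.24 without array 100 (limma adjusted p = 0.0146). The first was GH3.3, an enzyme that conjugates auxin to amino acids, at -1.91 (limma adjusted p = 0.0139). It lost the call without array 101 (-1.41), array 102 (-1.67) or array 104 (-1.56). Array 100, at 7.77, was the lowest of a first triplet that otherwise read 10.32 and 9.76.

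In secondary metabolism the lists were short, and their counts stand beside 16.3% of all tested probe sets that rose and 11.2% that fell. Of 4 glucosinolate and indole genes 2 rose, and 3 of 4 without array 100. AOP3, which modifies the side chain of glucosinolates, read 8.98, 8.40 and 9.02 in the second SA triplet, against 8.07, 5.92 and 7.31 in the first (difference 1.7, SE 0.35, limma adjusted p = 0.00212). AOP1, of the same group, rose by 1.73. Of 14 cytochrome P450 genes 4 rose and 2 fell, and without array 100, 6 rose and 2 fell. The fall beside CYP84A4 was CYP71B23, with 8.35, 7.32 and 8.11 against 9.44, 9.49 and 9.04 (difference -1.40, SE 0.20, limma adjusted p = 0.000161). Of 6 flavonoid and lignin genes 1 fell, CCOAMT, a methyltransferase acting on coenzyme A thioesters, at -1.15 (limma adjusted p = 0.00398).

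Several calls in short lists turned on single arrays. Among all tested probe sets, 16.3% rose and 11.2% fell. Most genes of these short lists had no probe set naming them alone, which does not mean that the array lacked them. Such probe sets existed for 4 of 38 cold and dehydration genes and 2 of 55 clock genes. Of 4 cold and dehydration genes 2 rose, COR15B at 1.03 and COR47 at 0.80, and 0 fell. The call of COR15B was lost without array 101 (0.90), array 102 (0.90) or array 104 (0.67), and that of COR47 without array 101 (0.68), array 103 (0.68) or array 104 (0.58). Of 2 clock genes, GI, a timekeeper that links light to flowering, read 8.51, 9.06 and 7.96 against 5.57, 7.98 and 7.25 (difference 1.58, limma adjusted p = 0.0284). Its call ended without array 100 (0.89), array 103 (1.45), array 104 (1.55) or array 105 (1.72). Of 2 heat shock and chaperone genes both fell. AT2G29500, a small heat shock protein of the cytosol, differed by -1.97 (limma adjusted p = 0.00501), and BOB1 by -0.60, a call that ended without array 100 (-0.53), array 101 (-0.53), array 104 (-0.47) or array 105 (-0.60).

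**Figure D3:**
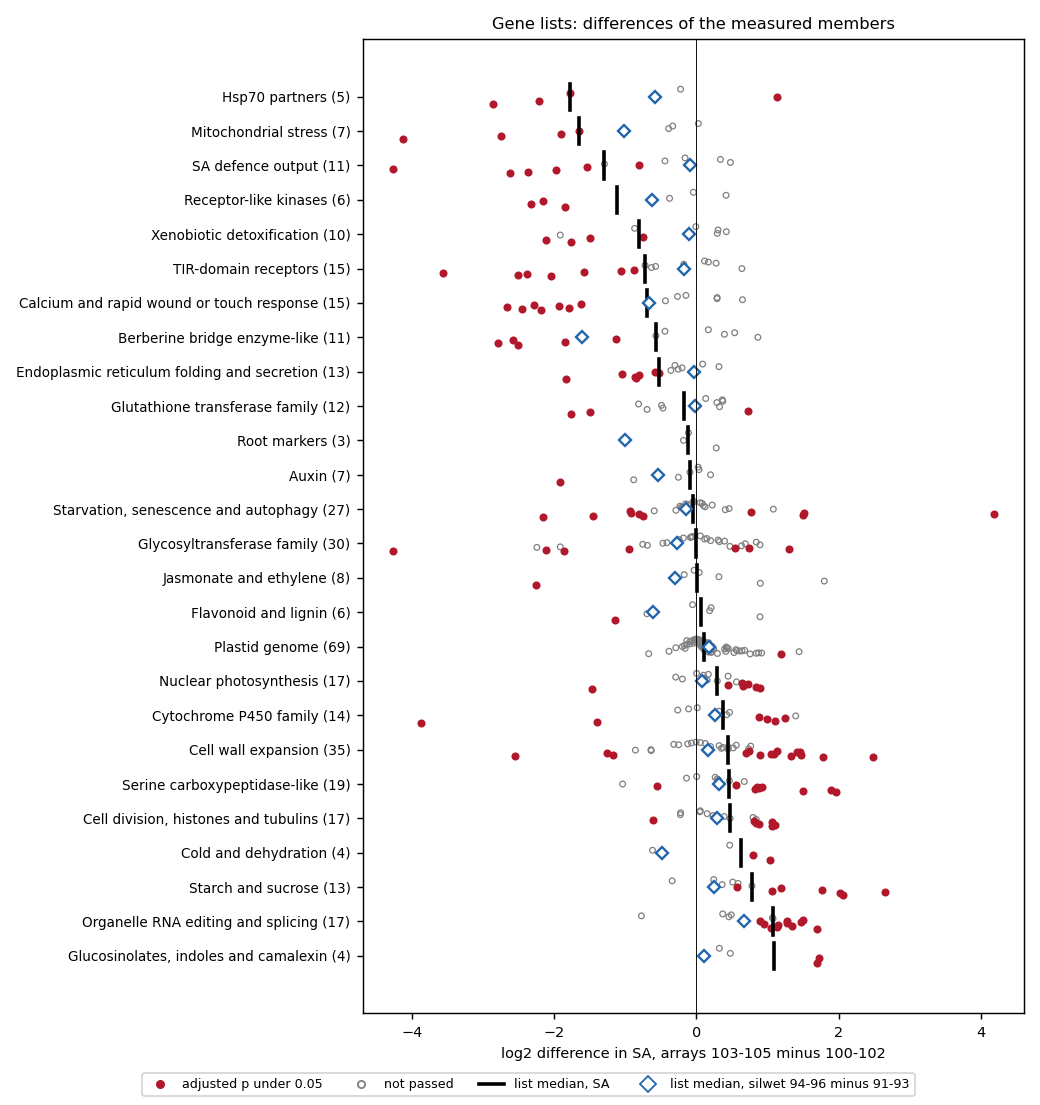
Log2 differences (SA arrays 103-105 minus SA arrays 100-102) of the measured members of each gene list, with the number of members in brackets, filled red where the limma adjusted p was under 0.05 and open where it was not. Black bars are list medians in SA and blue diamonds list medians of silwet arrays 94-96 minus 91-93. The lists of starch, organelle RNA, carboxypeptidase, berberine bridge enzyme, mitochondrial stress and Hsp70 genes were added after values were seen. Medians of the defence and receptor lists lie left of 0, and those of the wall and division lists right of 0.

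Silwet plants gave a comparison without SA, with triplets matched to those of SA by the order of array numbers. The labels do not state this match, and the interaction below rests on it. Between silwet arrays 94 to 96 and silwet arrays 91 to 93, 438 probe sets rose (2.75%) and 753 fell (4.73%), together 7.48%, against 27.5% between the SA triplets. The median absolute difference was 0.43 in SA and 0.27 in silwet. The differences in SA and in silwet, which share no arrays, correlated at 0.63 over the 15922 probe sets, and at 0.59 without array 100. Probe sets are not independent replicates. Of the falls, 535 were called in both, which is 29.9% of the SA falls and 71.0% of the silwet falls. The rises called in both made up 11.8% of the SA rises and 70.1% of the silwet rises, and 10 probe sets were called in opposite directions. The silwet total of 1191 was 1846 without SA array 100, since all arrays share 1 estimate of the spread, and 556, 788, 793 and 599 without silwet arrays 93, 94, 95 and 96.

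**Figure D4:**
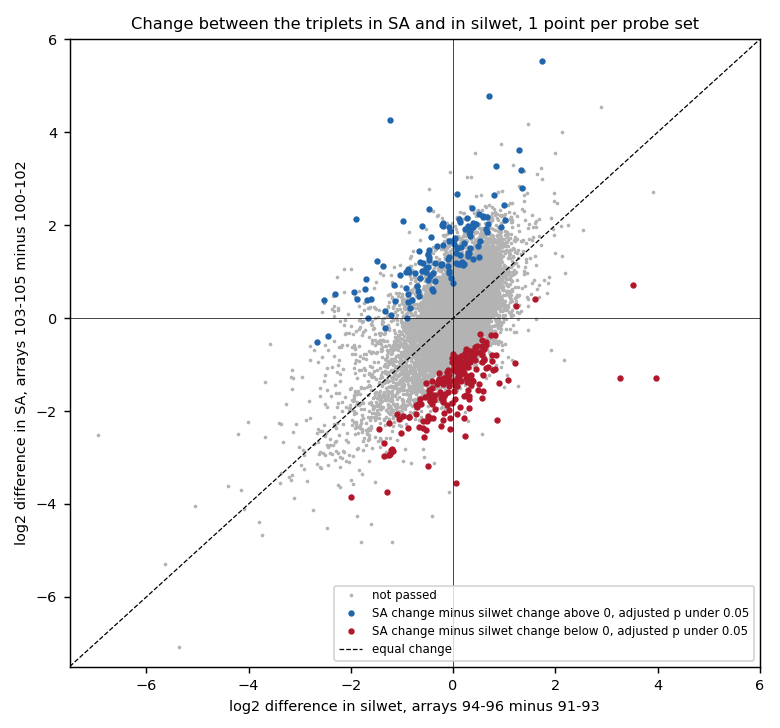
Log2 difference between the triplets in SA (vertical) and in silwet (horizontal), 1 point per tested probe set, with the dashed line marking equal change. Blue points changed more positively in SA (130) and red points more negatively (195), at a limma adjusted p under 0.05. Most red points lie below 0 on the vertical axis.

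Of the 12 named genes with the largest falls in SA, 11 also fell in silwet, the exception being UGT76B1 (-1.87 in silwet, limma adjusted p = 0.0546). Of the 12 with the largest rises, 6 also rose in silwet. These genes were picked for the size of their SA change. Of all probe sets called in SA, 29.9% of the falls and 11.8% of the rises were also called in silwet. The limma interaction adjusted p ran between 0.0552 and 0.906 for these falls and between 0.0218 and 0.759 for these rises. The interaction passed for 3 of the rises and 0 of the falls, beside 2.04% of all tested probe sets. The 3 were AT1G67750 (limma interaction 1.87, adjusted p = 0.0286), AT4G24780 (1.465, adjusted p = 0.0218) and GH9C2 (1.85, adjusted p = 0.042). AT4G12490 differed by 2.71 in SA and 3.91 in silwet, EXPA8 by 2.48 and 2.03, and SAG29 by 4.19 and 1.47, of which the silwet value did not pass (limma adjusted p = 0.456). AT1G74870 differed by -7.08 in SA and -5.37 in silwet (limma adjusted p = 0.000202), AT2G22880 by -5.30 and -5.64, and CML38 by -2.45 and -3.12. BZIP60 was likewise close, at -1.83 and -1.75. In silwet, 2.75% of all tested probe sets rose and 4.73% fell, with a median difference of 0.10. In the calcium and touch list, 7 of 15 members fell in silwet, with a median of -0.67. In the TIR-domain list 6 of 15 fell in silwet, with a median of -0.18. The list of genes tied to SA in defence had a median of -1.29 in SA and -0.09 in silwet, where 1 rose and 3 fell. The folding and secretion list had 7 falls in SA and 1 in silwet, with medians of -0.52 and -0.04. These lists were not tested for a difference between treatments.

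The difference between the 2 changes was tested for each probe set as an interaction. In 130 probe sets (0.816%) the SA change was higher than the silwet change and in 195 (1.22%) lower, together 2.04% of those tested. The SA change itself was called in 293 of these 325 probe sets, 185 lower and 108 higher. The number depended on single arrays. It was 823 without SA array 100, but 57 without SA array 104, 108 without SA array 101 and 131 without SA array 105. It was 81, 140, 156, 118, 63 and 164 without silwet arrays 91, 92, 93, 94, 95 and 96.

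Several genes with a negative interaction were highest in the first SA triplet. AT5G52810, the pipecolate gene described above, differed by -1.97 in SA and -0.09 in silwet, a difference of -1.89 (SE 0.30, limma adjusted p = 0.00864). AT5G45000 of the TIR-domain list differed by -2.04 in SA and -0.18 in silwet (interaction -1.86, limma adjusted p = 0.00864). AT5G24210, a lipase-like gene, read 8.62, 8.89 and 9.44 in the second SA triplet and 11.00, 11.27 and 11.14 in the first. The silwet values were 9.48, 9.62 and 9.51 in the second triplet and 9.04, 9.90 and 9.06 in the first, so the first SA triplet stood above all others (interaction -2.36, SE 0.34, limma adjusted p = 0.00792). AT3G51330, an aspartyl protease, fell by 1.32 in SA and rose by 1.07 in silwet, an interaction of -2.39 (SE 0.26, limma adjusted p = 0.00118).

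AT3G28510, an AAA-type ATPase, had the most negative interaction, -5.25 (SE 1.12, limma adjusted p = 0.0318). It read 5.41, 4.78 and 5.65 in the second SA triplet and 6.37, 6.96 and 6.38 in the first. The silwet values were 4.11, 4.81 and 4.54 in the second triplet and -2.02, 1.93 and 1.67 in the first, at the bottom of the array's range. With a floor at the 20th percentile the interaction was -3.43. Its call ended on leaving out any 1 of arrays 91, 94, 95, 96, 101, 104 and 105, with values of -5.49 to -4.36. AT3G62780, a C2-domain protein, had -2.30 and lost its call without 91, 92, 93, 95 or 104 (-2.43 to -2.14), and AT4G19370 had -2.25 and lost it without 91, 94, 95, 101, 103 or 104 (-2.37 to -1.87). AT3G47010, a glycosyl hydrolase, had -2.30 and lost it without any of 9 of the 12 arrays (91, 92, 94, 95, 96, 101, 102, 104 and 105, with -2.53 to -1.85).

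The 6 named genes with the largest positive interactions had a positive difference in SA and a negative one in silwet. HOS3-1, of the ELO family that lengthens fatty acids, read 6.39, 4.57 and 5.45 in the second SA triplet and 4.86, 3.51 and 4.32 in the first. The silwet values were 5.47, 4.01 and 4.65 in the second triplet and 7.25, 5.55 and 5.79 in the first. Each replicate pair thus rose in SA and fell in silwet (interaction 2.73, SE 0.28, limma adjusted p = 0.00118). AT1G52000, a jacalin-type lectin, differed by 1.12 in SA and -1.36 in silwet (interaction 2.48, limma adjusted p = 0.0119), and AT4G22470, a lipid transfer protein, by 0.85 and -1.7 (interaction 2.55, limma adjusted p = 0.0107). SKP2A, an F-box protein, differed by 1.44 and -0.68 (interaction 2.11, limma adjusted p = 0.0127).

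AT5G62360, of the family of pectin methylesterase inhibitors, had the largest positive interaction. It read 9.07, 9.84 and 9.22 in the second SA triplet and 8.19, 6.26 and 6.66 in the first, against 9.01, 9.27 and 8.74 and 9.73, 9.39 and 9.33 in silwet arrays 94 to 96 and 91 to 93 (interaction 2.82, SE 0.50, limma adjusted p = 0.0137). The first SA triplet was the low one. Without array 104 the interaction was 2.5 (limma adjusted p = 0.0528). JRG21, an oxygenase that inactivates jasmonate, differed by 0.56 in SA, which did not pass, and by -1.94 in silwet (interaction 2.49, limma adjusted p = 0.042). Its call ended without any of arrays 91, 92, 94, 95, 96, 101, 103, 104 and 105 (2.23 to 2.71).

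**Figure D5:**
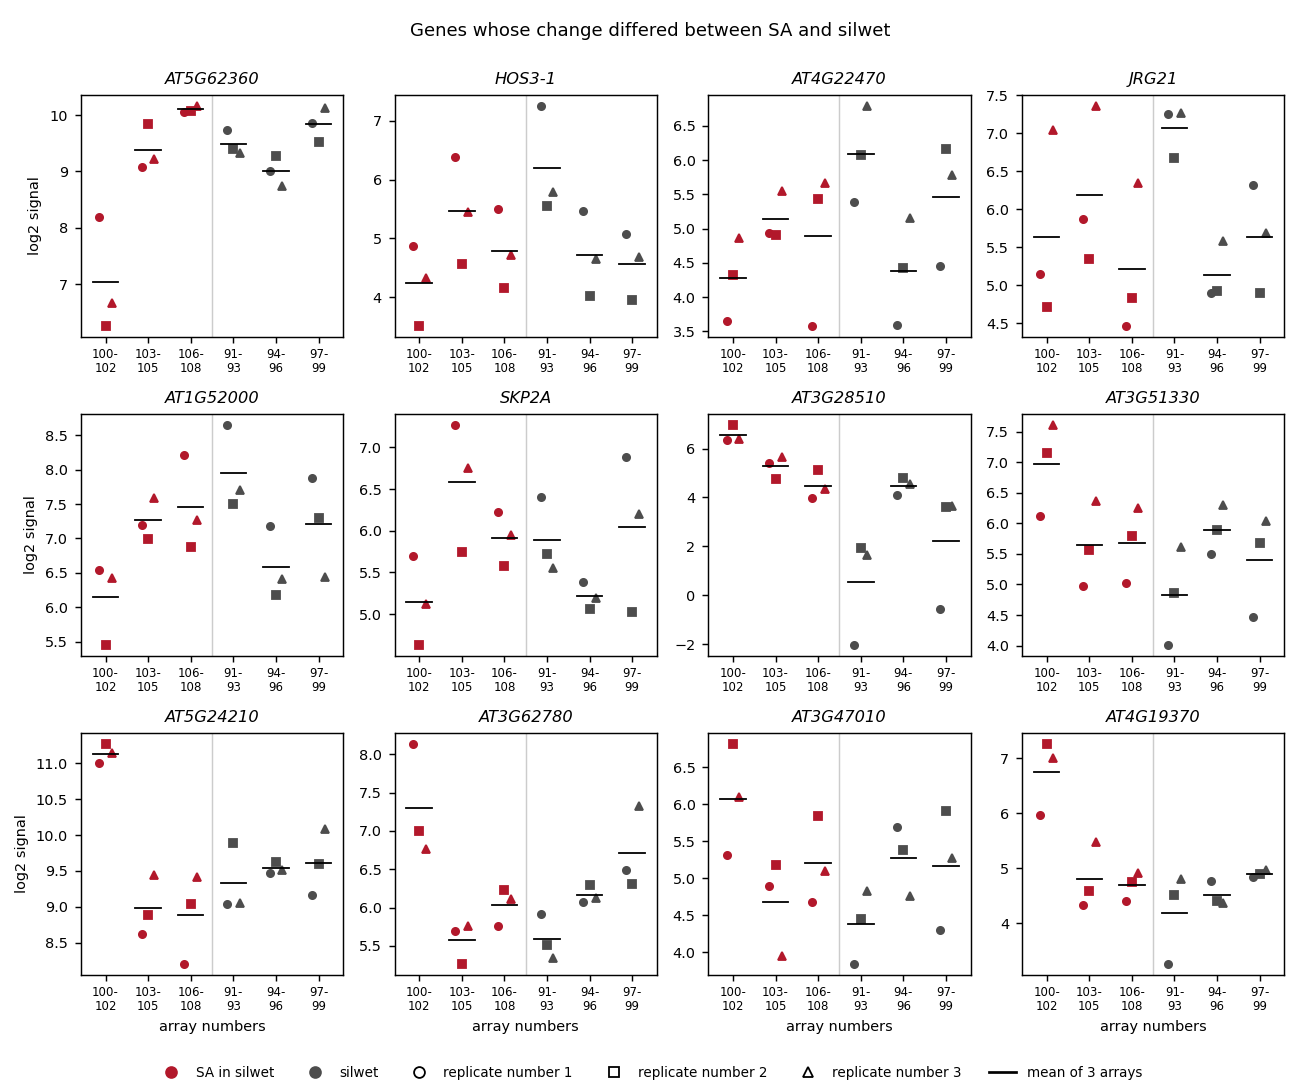
Log2 signal of the 12 named genes with the largest interactions, 1 point per array, in SA (red) and silwet (grey), with shapes for replicate numbers and bars for means of 3 arrays. In HOS3-1 each replicate number is higher on SA arrays 103-105 than on 100-102 and lower on silwet arrays 94-96 than on 91-93, and in AT5G24210 SA arrays 100-102 lie above all other arrays.

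Few probe sets passed between the third SA triplet and the second. Between SA arrays 106 to 108 and SA arrays 103 to 105, 2 probe sets of 15922 (0.0126%) passed in limma, 1 higher (0.00628%) and 1 lower (0.00628%), and 1023 had an unadjusted p under 0.05. This comparison shares arrays 103 to 105 with the main one, so its values are given side by side only. LHCB4.3 was the probe set that was higher, with 8.05, 8.33 and 7.88 in the third triplet (difference 1.56, SE 0.16, limma adjusted p = 0.00198), after a difference of -1.47 between the second and first. The probe set that was lower carried no gene name. UGT76B1 measured 10.45, 10.88 and 10.82 in the first triplet, 5.33, 6.05 and 7.99 in the second, and 2.07, 4.40 and 5.81 in the third. Its further difference of -2.36 did not pass (limma adjusted p = 0.182). GSTU25 measured 3.52, 3.83 and 3.65 in the third triplet, also below the second (difference -1.69, limma adjusted p = 0.0971). The pectate lyase-like gene AT1G67750, at 8.37, 7.78 and 7.39, overlapped the second triplet.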

How the data were processed

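Total RNA of 18 samples was measured on ATH1 arrays. The authors deposited 1 intensity per probe set and array, unlogged, and the submitters' processing notes name MAS5 (version not given in the sources used here). Trimmed by 2% at both ends, each array averaged 100.01, so no further scaling was applied. There were 22810 probe sets, 64 being controls, and no detection calls. Of the 22746 others, 13513 had 1 gene in the platform annotation (symbols updated through RefSeq, assembly TAIR10.1), 503 had several and 8730 were not named here. PR1, PR2 and PR5 were not analysed here.

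Values were taken as log2, and the dimmest 30% (6824 probe sets by mean log2 signal) were left out, which left 15922. MAS5 values scatter widely near background, so dim probe sets give less precise differences, and the small number of arrays limits precision. limma 3.58.1 in R 4.3.3 was fitted to all 18 arrays in 6 groups with the replicate number as a block and a trend of variance on mean signal. P-values were adjusted by Benjamini-Hochberg, with a threshold of 0.05. Deviations of same-numbered arrays from their triplet means, numbers taken from the labels, correlated at 0.264, 0.369 and 0.292 for numbers 1, 2 and 3 in SA. In silwet they correlated at 0.195, 0.166 and 0.441. Arrays of different numbers gave lower values, -0.302 to 0.0217 in SA and -0.311 to 0.134 in silwet. Deviations from a triplet mean cancel out, which lowers these values when same-numbered ones are positive. Correlations between SA and silwet arrays of the same number were not computed, although the block is shared by both treatments. The fit was also run on data simulated from the same model with independent noise. That run cannot show how a deviating array or the choice of block affects the counts.

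The comparison and the lists were chosen with earlier results of these data known. Gene lists have counts and medians but no test, and each gene was represented by its brightest probe set. Named genes were the 12 largest rises and falls with 1 gene, an adjusted p under 0.05, 1 sign in all 3 pairs and a mean of at least 6 in the brighter triplet, up to 4 members per list by p-value, and the 6 largest interactions each way under the same conditions. SAG101, BSMT1, STZ, CML37, EXPB3, XTH29, PME61, TUB6, LHCB4.1, LHCB4.2, RCA, SWEET13, EIN3 and WES1, and the genes under the other observations, were named after their values were seen. Alternatives were other normalization, filters, floors, weights, models and arrays left out.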

Additional observations from a re-analysis of the deposited data

Results flagged for a closer look

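With the triplets of both treatments matched by the order of array numbers, each probe set's change could be compared between treatments. The SA change differed from the silwet change by the limma interaction test in 130 probe sets that were higher and 195 that were lower. Among named genes the most positive values of the SA change minus the silwet change were 2.82 for AT5G62360, 2.73 for HOS3-1, 2.55 for AT4G22470, 2.49 for JRG21, 2.48 for AT1G52000 and 2.11 for SKP2A. The most negative were -5.25 for AT3G28510, -2.39 for AT3G51330, -2.36 for AT5G24210, -2.30 for AT3G62780, -2.30 for AT3G47010 and -2.25 for AT4G19370. Triplets have 3 arrays, too few to test a single array as an outlier.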

How the results depend on the processing

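Without the replicate block, 1690 probe sets rose (2592 with it), 572 changed in silwet (1191) and 47 had an interaction (325), while falls numbered 1401 (1788). In a paired fit of the 6 SA arrays alone, 775 rose and 954 fell. With array weights, which gave array 100 the lowest weight of 0.0995, 4573 rose, 2872 fell, 2971 changed in silwet and 2421 had an interaction. Quantile normalization gave 2234 rises and 2047 falls and the largest change in the share of rises among settings that kept all arrays and the block, 52.2% against 59.2% as reported, apart from the fit of the 6 SA arrays, with 44.8%. Leaving out 1 array, or 1 replicate number throughout, gave 768 to 3295 rises, 816 to 2255 falls, 179 to 1846 silwet changes and 0 to 823 interactions in limma. Both counts of 0 interactions came from leaving out replicate number 2 or 3, with 1043 and 1513 probe sets at an unadjusted p under 0.05. The other alternatives, which changed the filter on dim probe sets, the floor, the added value or the trend, kept these counts within 1.5 times. Signs turned for values that had not passed. GH3.17 was -0.00144 with quantile normalization. With array weights HCT was -0.076, JAL33 0.32 and PYK10 0.40. Leaving out arrays or replicate numbers gave -0.15 to 0.92 for COR15A, -0.14 to 0.41 for HCT, -0.64 to 0.18 for JAL33 and -0.53 to 0.27 for PYK10. The causes were not tested.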

Other observations

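Gene groups outside the report's lists, chosen after their values were seen and therefore only described, also separated the second SA triplet from the first. Among all tested probe sets, 16.3% rose and 11.2% fell in SA, with median differences of 0.18 in SA and 0.10 in silwet. Of 17 measured factors for editing and splicing of organelle transcripts 11 rose and 0 fell, with a median of 1.08 in SA and 0.66 in silwet. CRR21, which edits a plastid transcript, read 5.74, 6.03 and 5.73 on SA arrays 103 to 105, against 4.96, 4.52 and 2.91 on SA arrays 100 to 102 (difference 1.7, limma adjusted p = 0.000718). Of 13 genes of starch and sucrose metabolism and sugar transport 7 rose and 0 fell (median 0.78). DPE1, which recycles short glucans during starch breakdown, read 7.99, 8.27 and 7.77 against 5.78, 6.43 and 5.62 (difference 2.06, limma adjusted p = 2.16e-06), and the vacuolar sugar transporter TMT2 rose by 2.02, more than in silwet (0.68, interaction adjusted p = 0.0471). Of 19 serine carboxypeptidase-like genes 8 rose and 1 fell, led by SCPL34 at 1.97. Without array 100, 10 of the organelle factors rose, 6 of the starch and sucrose genes rose, and 7 of the carboxypeptidase-like genes rose and 0 fell.

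Falls were seen in 3 further groups, beside 11.2% of all tested probe sets that fell in SA and 4.73% in silwet. Of 11 berberine bridge enzyme-like oxidoreductases 5 fell and 0 rose, among them AT1G26420, with 5.09, 4.70 and 5.01 against 7.28, 8.14 and 7.76 (difference -2.79, limma adjusted p = 8.38e-06). In silwet 6 of the 11 fell, with a median of -1.61 against -0.57 in SA. Without array 100, 4 fell in SA and the SA median was -0.99. Of 7 mitochondrial stress genes 4 fell, and 5 without array 100, including NDB2, an alternative NADH dehydrogenase, with 8.07, 7.45 and 8.61 against 9.50, 10.28 and 10.08 (difference -1.91, limma adjusted p = 0.000106). Among 5 genes for Hsp70 and its partners 3 fell and 1 rose. Fes1A, a factor that acts on Hsp70, read 7.0, 6.48 and 6.97 against 9.56, 9.96 and 9.50 (difference -2.86, silwet difference -1.18, interaction adjusted p = 0.0152), while its relative Fes1B rose by 1.13. SGT1A, a co-chaperone of immune receptors, fell by 2.22 in SA and differed by -0.58 in silwet (interaction adjusted p = 0.0128).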
